A study of Mus musculus with 66 samples.

Results

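The 8 genes described here are the muscarinic and nicotinic acetylcholine receptor genes Chrm1, Chrm2, Chrm3, Chrm4, Chrm5, Chrna4, Chrna7 and Chrnb2. They were chosen as the rows of the deposited expression table whose symbol was one of these names, and each name matched 1 of the 24138 genes listed. Expression was given as FPKM, fragments mapped to a gene, scaled for transcript length and for the size of the library. It was measured by RNA sequencing in punches of the nucleus accumbens (NAcc), the ventral part of the striatum, from male C57BL/6 background mice of 3 to 5 months. WT mice and iMSN-D2RKO mice received an intraperitoneal injection of saline or of 20 mg/kg cocaine at ZT3, zeitgeber time counting hours from lights on in a cycle of 12 h light and 12 h dark, and tissue was taken at ZT7, 11, 15, 19 and 23. Libraries of ZT3 served both the saline and the cocaine series. In all there were 66 distinct libraries, 33 per genotype, in 22 groups of 3.

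iMSN-D2RKO mice carried floxed alleles of the dopamine D2 receptor gene and a Cre recombinase driven by the D1R promoter (D1R-CRE+/-). In adults this promoter is active mainly in spiny neurons of the direct pathway, and those of the indirect pathway (iMSNs) lose the D2 receptor through Cre made in the embryo. Gene-level Drd2 FPKM ranged from 78.0 to 375 in iMSN-D2RKO and from 99.1 to 304 in WT libraries, and checks nothing about the deletion, which removes part of the gene. The labels number the libraries of a group without naming animals, so the p-values measure the spread between these libraries, which may be partly technical.

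A set of 13 libraries stood apart from the other 53 along the main axis of variation within groups, which held 43.6% of that variance, 6 from WT and 7 from iMSN-D2RKO mice, all but 1 of them taken at ZT15 or later. A further library, iMSN-D2RKO saline ZT7 replicate 1, had a total of 690048 FPKM, where the next highest library had 465297. It had the highest Chrm4 of all libraries (76.6 FPKM) and the lowest Chrm2, Chrm3, Chrm5 and Chrna7 (0.418, 1.87, 0.155 and 0.924 FPKM). Its summed FPKM of 10 spiny neuron markers was 15451, with a median of 4246 in the others. The marker sums of other striatal interneurons (3954, median 1157 in the others) and microglia (274, median 145) were also the highest of all libraries. Those of cholinergic neurons (49.9, median 48.1) and cortical pyramidal neurons (113, median 137) were not, and that of choroid plexus was the lowest. Such sums weigh the most abundant genes of a list most. The highest values over all libraries were 9282 FPKM for the spiny neuron marker Penk and 3060 FPKM for the interneuron marker Sst. As a mean of log2(FPKM + 1) over markers, this library was 0.31 above its group mean for spiny neurons. It was 0.48 above for other interneurons and 0.23 above for microglia.

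Acetylcholine in the striatum is released by a small population of cholinergic interneurons with very dense axons. Muscarinic receptors are G protein-coupled: those encoded by Chrm1, Chrm3 and Chrm5 act through Gq and phospholipase C, and those encoded by Chrm2 and Chrm4 act through Gi/o and lower cAMP. Nicotinic receptors are ion channels made of 5 subunits. In the brain the main forms combine the products of Chrna4 and Chrnb2, or consist of the product of Chrna7 alone. Much striatal nicotinic receptor protein lies on axons whose cell bodies are elsewhere, and the mRNA of such axons is not in a striatal punch.

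In the mouse genome (GRCm38, gene models of GENCODE M21) Chrm4 lies on chromosome 2 from 91927249 to 91928688 on the plus strand. Chrm5 lies on chromosome 2 from 112479171 to 112480769 on the minus strand, and Chrna4 on the same chromosome and strand from 181018380 to 181043546. Chrnb2 lies on chromosome 3 (89746195 to 89764632, minus), Chrm2 on chromosome 6 (36388084 to 36528414, plus) and Chrna7 on chromosome 7 (63098692 to 63212569, minus). Chrm3 lies on chromosome 13 (9875486 to 10360847, minus) and Chrm1 on chromosome 19 (8663789 to 8683587, plus). The RefSeq model of Chrm5 is longer, from 112478733 to 112536361, and overlaps Aven on the opposite strand. Counting by strand is not given in the sources used here, so the values of Chrm5 are uncertain to that extent.

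Promoter sequences of the RefSeq table (GRCm38.p6) matched 7 of the 8 genes, all but Chrm1. The 250 bases before the RefSeq start of Chrm4 (91922189) and of Chrna7 (63212526), which differ from the GENCODE starts above, are shown. Chrm4 was chosen as the only receptor gene called between dark and light hours, a call that was lost without the 13 libraries that stood apart. Chrna7 was chosen as the member whose window held the canonical E-box CACGTG, the element bound by the clock activators. Capitals mark the E-box, sequences run 5′ to 3′, and the windows are chr2:91921939-91922188 on the plus strand and chr7:63212527-63212776 on the minus strand.
Chrm4: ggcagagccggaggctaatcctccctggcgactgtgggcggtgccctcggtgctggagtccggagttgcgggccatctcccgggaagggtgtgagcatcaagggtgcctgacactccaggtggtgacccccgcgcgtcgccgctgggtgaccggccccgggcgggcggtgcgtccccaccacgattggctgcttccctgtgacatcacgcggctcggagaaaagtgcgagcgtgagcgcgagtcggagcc
Chrna7: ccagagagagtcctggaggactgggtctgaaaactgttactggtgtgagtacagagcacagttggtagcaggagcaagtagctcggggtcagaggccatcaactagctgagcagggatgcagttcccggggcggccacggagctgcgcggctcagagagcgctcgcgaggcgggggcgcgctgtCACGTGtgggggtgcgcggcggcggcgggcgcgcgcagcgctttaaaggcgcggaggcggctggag
The E-box of Chrna7 began 66 bases before the RefSeq start. CACGTG was present in 6.02% of all 32851 promoter windows of this length. The cAMP response element TGACGTCA (1.55% of windows) and the D-box TTATGTAA (0.819%) were in none of the 7 windows. Each motif was searched on both strands. A match is a description of these letters and not a site.

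Chrm4 and Chrm1 were the most abundant receptor mRNAs of the NAcc punches. Over all 66 libraries the mean was 41.4 FPKM for Chrm4 (SD 10.3) and 28.03 FPKM for Chrm1 (SD 5.15). Chrnb2 followed with 12.4 FPKM (SD 1.81), Chrna4 with 9.17 (SD 3.56), Chrm3 with 6.67 (SD 2.34), Chrna7 with 5.77 (SD 1.54), Chrm2 with 3.78 (SD 1.69) and Chrm5 with 1.40 (SD 0.742). No member was at 0 in any library. Chrm4 and Chrm1 are the muscarinic receptors of spiny neurons, Chrm4 mainly in those of the direct pathway, and together they held a median of 85.2% of the summed FPKM of the 5 muscarinic genes (range 70.3 to 97.6%).

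The order of these levels was firm at some steps and not at others. Chrm1 was above Chrnb2 in 66 of 66 libraries, and the 3 libraries of the genes did not overlap in any of the 22 groups. Chrm4 was above Chrm1 in 62 of 66 libraries and in the mean of all 22 groups, with a median ratio of 1.49 and no overlap in 13 groups. Chrnb2 exceeded Chrna4 in 54 of 66 libraries, with no overlap in 11 groups, and the ratio of the pair had a median of 1.45 (range 0.760 to 3.17). The neighbours Chrna4 and Chrm3, and Chrm3 and Chrna7, were within each other's spread in most groups, with no overlap in 4 and 2 of 22 groups. Chrna7 was above Chrm2 in 59 libraries and Chrm2 above Chrm5 in 65 of 66.

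The members also differed in how far their groups moved. The group means of Chrnb2 stayed between 10.2 and 14.3 FPKM, a 1.41-fold range, and its SD within groups was 0.17 on the log2(FPKM + 1) scale. Chrm1 group means ran from 24.4 to 37.6 FPKM (1.54-fold, within-group SD 0.24 on the log2 scale). The widest relative range was that of Chrm5, from 0.647 FPKM in iMSN-D2RKO saline ZT7 to 2.73 FPKM in WT ZT3 (4.22-fold), followed by Chrm3 from 3.36 to 11.2 FPKM (3.33-fold). Chrm2 had the largest spread between libraries of a group, with a log2 SD of 0.52.

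**Figure D1:**
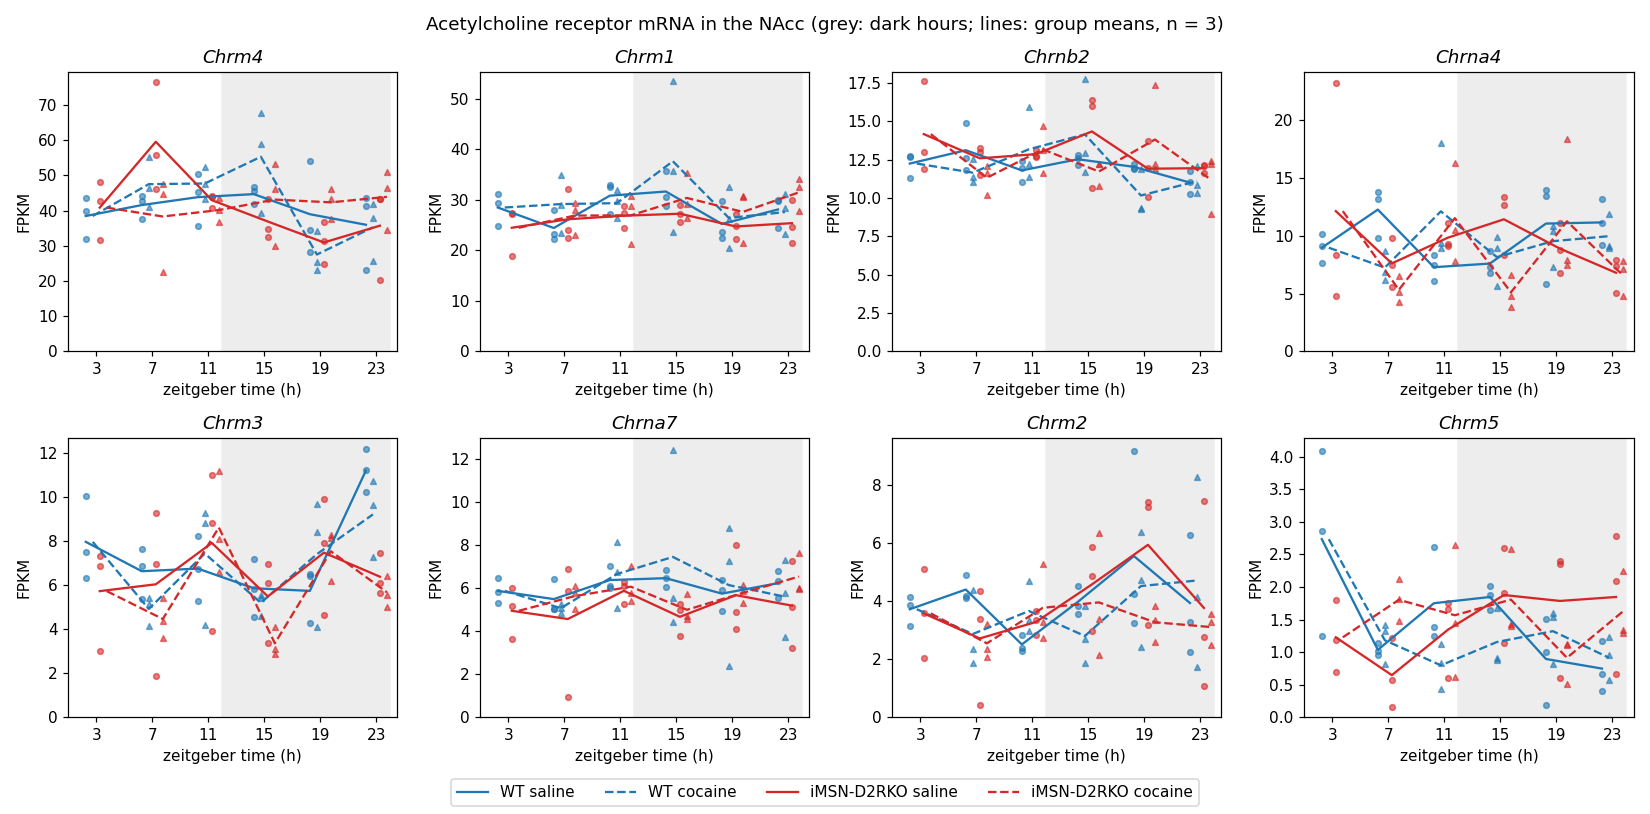
FPKM of each of the 8 receptor genes (vertical axes, starting at 0) against zeitgeber time in h (horizontal axes), with a point per library, lines through the means of 3 libraries, blue for WT, red for iMSN-D2RKO, solid for saline and dashed for cocaine, and grey for the dark hours. ZT3 libraries are drawn once and belong to both series. The mean of Chrm4 was 59.5 FPKM at ZT7 and 30.9 FPKM at ZT19 in the iMSN-D2RKO saline series, and in most other panels the points of the 4 series overlap.

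In the remaining nicotinic subunit genes expression was low. All 13 had a mean under 1 FPKM, the highest being Chrnb1, the muscle-type beta subunit, with 0.741 FPKM, and Chrna5, an accessory subunit of alpha4-beta2 receptors, with 0.347 FPKM. Chrnd was listed at 0 in all 66 libraries. Of these 13 genes, 1 to 3 passed the filter on low values in a comparison, and none was called in any comparison of level, treatment or dark against light hours. In these comparisons 0.0 to 27.3% of all genes were called.

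No change in level of the 8 genes after cocaine passed the test. Levels over ZT7 to ZT23 were compared with limma on log2(FPKM + 1) with time as a covariate, 15 cocaine against 15 saline libraries per genotype, and calls were made at a Benjamini-Hochberg adjusted p under 0.05 over all genes. All 8 members were tested, and 0 were called in WT and 0 in iMSN-D2RKO, where 0.0% of 14392 and 0.0% of 14238 genes were called (365 genes, or 2.54%, and 425 genes, or 2.98%, had an unadjusted p under 0.05, none of them a member). In WT, Chrm4 was 42.6 FPKM ± 12.7 (SD, n = 15) after cocaine and 41.0 ± 8.13 after saline, a log2 difference of 0.02 (SE 0.11, 95% interval -0.21 to 0.25). In iMSN-D2RKO mice the Chrm4 values were 41.6 ± 8.19 and 41.2 ± 13.3 FPKM, a log2 difference of 0.05 (interval -0.24 to 0.33).

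The 95% intervals bound how large a cocaine effect on the mean level could be. For Chrnb2, the steadiest member, the interval ran from -0.15 to 0.11 in WT and from -0.20 to 0.09 in iMSN-D2RKO mice on the log2 scale. For Chrm2, the most variable, it ran from -0.47 to 0.21 and from -0.51 to 0.27. The median log2 difference of the 8 members was -0.05 in WT and -0.00 in iMSN-D2RKO mice, against 0.00 and -0.01 for all genes tested. No difference of the cocaine effect between genotypes passed the test (0 of 8 called, 0.0% of 14622 genes called and 245 at an unadjusted p under 0.05), the largest estimate being that of Chrna7 at 0.24 (SE 0.19, adjusted p = 0.9996).

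No member passed the test between genotypes. In the saline series, 18 libraries of each genotype, 0 of 8 members and 0.189% of 14287 genes were called. Chrna7 had the largest difference, with 5.15 FPKM ± 1.64 (SD, n = 18) in iMSN-D2RKO and 6.03 ± 0.646 in WT mice, a log2 difference of -0.25 (SE 0.12, unadjusted p = 0.0441, adjusted p = 0.488). The lowest of the iMSN-D2RKO values is that of the ZT7 library described above, without which the difference was -0.16 (adjusted p = 0.629). In the cocaine series, 15 libraries of each genotype, again 0 of 8 members were called, with 0.0487% of 14382 genes called. Chrm5, a receptor gene known from midbrain dopamine neurons, was 1.54 FPKM ± 0.636 in iMSN-D2RKO and 1.08 ± 0.377 in WT mice (log2 difference 0.27, SE 0.12, unadjusted p = 0.0263, adjusted p = 0.9996). Chrna4 was 7.95 ± 4.19 and 9.40 ± 2.93 FPKM (log2 difference -0.29, SE 0.14, adjusted p = 0.9996). For Chrm4 the log2 differences between genotypes were -0.01 (interval -0.23 to 0.21) in saline and -0.00 (interval -0.28 to 0.27) in cocaine.

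At single time points, with 3 libraries against 3, no member was called in any of 10 comparisons of cocaine with saline or 11 comparisons of genotype. Over all genes 0.00478% of the tests were called in the former and 1.77% in the latter. The groups did not overlap in 8 of the 80 pairs of member and time point for cocaine, or 10%, where the share over all genes was 9.0%. For genotype it was 13 of 88 pairs, or 14.8%, against 16.5% of all genes. These shares of the members were close to those of all genes.

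The largest of these differences was that of Chrna4, the alpha4 subunit, in iMSN-D2RKO mice at ZT15. Its 3 values were 3.85, 4.83 and 6.64 FPKM after cocaine and 13.3, 8.30 and 12.6 FPKM after saline. All cocaine libraries were below all saline libraries, and the log2 difference was -1.02 (unadjusted p = 0.00303), which did not pass adjustment over all genes (adjusted p = 1). In WT mice at ZT15 the groups overlapped, at 5.64, 8.91 and 9.89 FPKM after cocaine and 7.29, 8.72 and 6.77 after saline. The difference of the effect between genotypes was -1.09 (SE 0.46, unadjusted p = 0.0229, adjusted p = 1). In the same iMSN-D2RKO groups the summed FPKM of 10 spiny neuron markers ran from 5203 to 6376 after cocaine and from 3622 to 5112 after saline, also without overlap, and the part of this in the Chrna4 values was not tested. In a bulk punch, fewer cells of a type and less RNA per cell cannot be told apart.

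Chrna4 was also lower after cocaine at ZT7 in WT mice, with 6.88, 6.19 and 8.65 FPKM against 9.84, 13.2 and 13.8 (log2 difference -0.68, adjusted p = 1), and at ZT11 the order was the opposite, with 18.01, 8.98 and 9.34 FPKM after cocaine and 7.43, 6.07 and 8.34 after saline. Neither difference passed adjustment.

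At ZT7 in iMSN-D2RKO mice Chrm5 was 1.48, 2.12 and 1.82 FPKM after cocaine and 0.155, 1.22 and 0.567 FPKM after saline, without overlap (log2 difference 0.81, SE 0.31, adjusted p = 0.143). Chrm4 at the same time point was 47.6, 22.6 and 44.8 FPKM after cocaine and 76.6, 46.2 and 55.8 FPKM after saline (log2 difference -0.66, adjusted p = 0.152), and these ranges overlapped. The saline group holds the library of the highest total FPKM, which has the lowest Chrm5 and the highest Chrm4 value, and the cocaine library with 22.6 FPKM of Chrm4 is a set-apart library. The Chrm4 difference was -0.33 without the set-apart libraries (adjusted p = 0.284) and -0.47 without the saline library (adjusted p = 0.787). The Chrm5 difference was 0.58 without the saline library (adjusted p = 0.787). In WT mice at ZT7 Chrm4 was 46.3, 55.1 and 41.1 FPKM after cocaine and 44.2, 42.8 and 37.7 FPKM after saline. The difference of the effect between genotypes was -0.84 (SE 0.37, adjusted p = 0.658) for Chrm4, and -0.51 without the set-apart libraries (adjusted p = 0.621).

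Among the genotype comparisons at single time points, Chrm3 had its largest difference at ZT23. In the saline groups WT values were 11.2, 12.2 and 10.2 FPKM and iMSN-D2RKO values 5.62, 6.07 and 7.43 FPKM, a log2 difference of -0.73 that did not pass adjustment (adjusted p = 1). In the cocaine groups WT values were 9.61, 10.7 and 7.27 and iMSN-D2RKO values 5.56, 5.02 and 6.41 FPKM, again without overlap. Chrm3, a Gq-coupled receptor, is expressed more in cortex than in striatum. The summed FPKM of 7 markers of cortical pyramidal neurons, which include Slc17a7, the vesicular glutamate transporter 1 gene, ran from 202 to 272 in WT saline ZT23 and from 61.3 to 182 in iMSN-D2RKO saline ZT23. Of the 7 markers, Emx1 was at 0 in 1 of the 66 libraries and the others in none. Their part in the Chrm3 values was not tested.

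At ZT19 after cocaine, Chrm4 was 46.2, 43.3 and 37.5 FPKM in iMSN-D2RKO and 23.1, 25.3 and 34.2 FPKM in WT mice, without overlap, as was Chrnb2 with 12.2, 11.89 and 17.4 against 9.27, 11.88 and 9.34 FPKM, the nearest of these values being almost equal. The log2 differences were 0.62 (SE 0.26, adjusted p = 0.0863) for Chrm4 and 0.40 (adjusted p = 0.0576) for Chrnb2. At this time point 11.9% of all genes were called and 44.9% did not overlap. Of the 3 WT libraries, 2 are among the set-apart libraries, and no iMSN-D2RKO library is. Without them a single WT library is left, and the log2 difference was 0.71 for Chrm4 and 0.18 for Chrnb2.

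**Figure D2:**
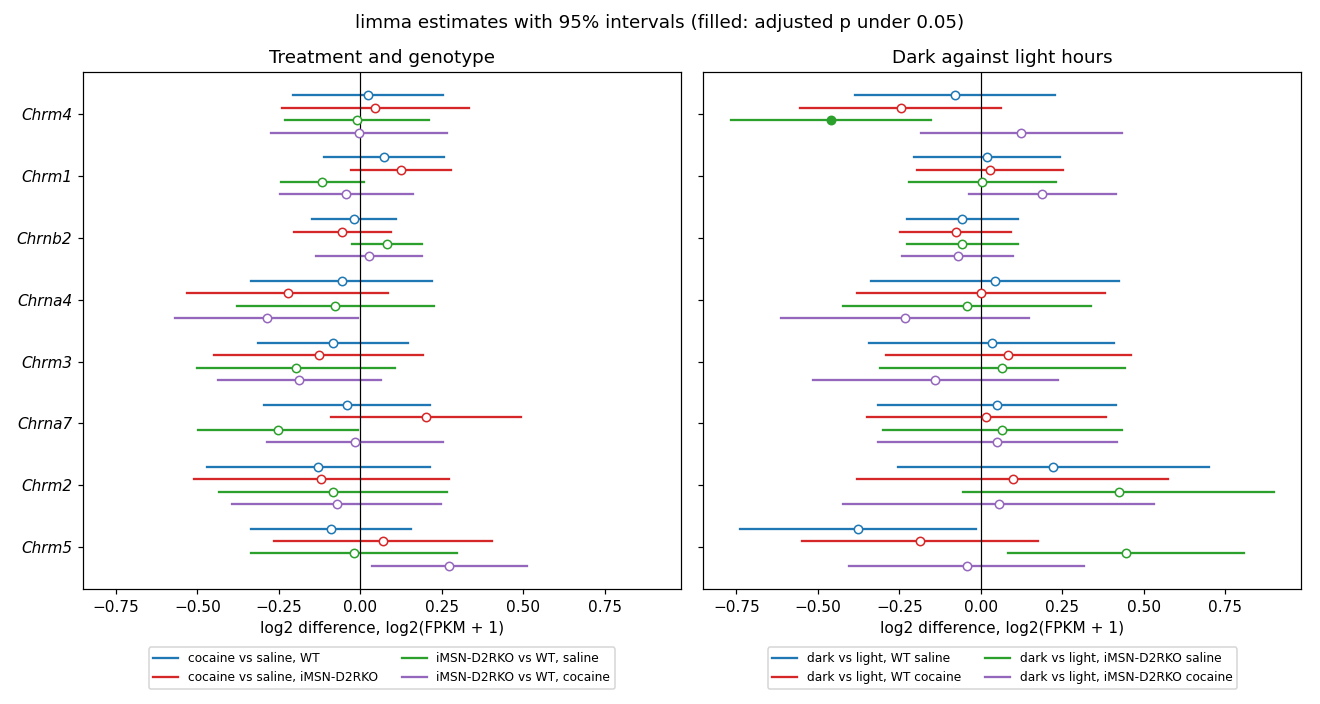
Differences on the log2(FPKM + 1) scale (horizontal axes) for the 8 receptor genes (vertical axis), estimated with limma and drawn with 95% intervals; treatment and genotype are on the left and dark against light hours on the right, and a filled point marks an adjusted p under 0.05. The only filled point is Chrm4 in the dark hours of the iMSN-D2RKO saline series, at -0.46.

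Chrm4 was the only member called between light and dark hours, in saline-treated iMSN-D2RKO mice. Its values there were 42.7, 31.6 and 48.2 FPKM at ZT3, 76.6, 46.2 and 55.8 at ZT7, and 44.2, 43.8 and 40.8 at ZT11. In the dark they were 34.7, 43.3 and 32.6 FPKM at ZT15, 31.2, 36.9 and 24.7 at ZT19, and 43.4, 43.4 and 20.3 at ZT23. The means were 34.5 FPKM ± 8.33 (SD, n = 9) in dark and 47.8 ± 12.6 in light hours, and the ranges overlapped. The log2 difference was -0.46 (SE 0.15, adjusted p = 0.0270). In this comparison 27.3% of 14643 genes were called, and 9.88% were called as lower in the dark. The 1 of 8 members, called as lower, is below the former share and close to the latter.

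The difference of Chrm4 was smaller without the libraries in doubt. Without the 13 set-apart libraries it was -0.23 (adjusted p = 0.476), and without iMSN-D2RKO saline ZT7 replicate 1, chosen after its values were seen, it was -0.40 (adjusted p = 0.0615). Of the 9 dark libraries, 4 were set apart and none of the 9 light libraries were. The summed FPKM of the 10 spiny neuron markers ran from 3622 to 6527 in dark and from 3025 to 15451 in light hours, the highest sum being that of ZT7 replicate 1. Among those markers 1 of 10 was called, Adora2a, an adenosine receptor gene of indirect pathway neurons, which was lower in the dark with 130 FPKM ± 48.7 against 193 ± 42.6 (log2 difference -0.63, adjusted p = 0.0258). Without the set-apart libraries the Adora2a difference was -0.19 and was not called (adjusted p = 0.663). In WT cocaine Adora2a was also called as lower in the dark (-0.64, adjusted p = 0.0365), and still without the set-apart libraries (-0.59, adjusted p = 0.00200). It was not called there with the score of each library on the main axis as a covariate (-0.21, adjusted p = 0.371). The part of the marker values in the Chrm4 result was not tested.

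In the other series Chrm4 was not called. In WT saline it was 40, 31.9 and 43.5 FPKM at ZT3, 44.2, 42.8 and 37.7 at ZT7 and 45.3, 50.5 and 35.6 at ZT11. In the dark it was 46.6, 41.9 and 45.4 FPKM at ZT15, 34.5, 28.2 and 54.2 at ZT19 and 23, 43.6 and 41.3 at ZT23, within the range of the light hours or on both sides of it. The log2 difference between dark and light hours was -0.08 (SE 0.15) in WT saline, -0.25 in WT cocaine and 0.12 in iMSN-D2RKO cocaine. The difference between the genotypes in saline was -0.38 (SE 0.22, adjusted p = 1), so the change in iMSN-D2RKO mice was not shown to differ from WT. Chrm5 had opposite signs in the saline series of the genotypes, -0.38 in WT (1.16 FPKM ± 0.652 in dark and 1.84 ± 1.10 in light) and 0.45 in iMSN-D2RKO mice (1.84 ± 0.829 and 1.07 ± 0.598). Neither passed adjustment (adjusted p = 0.169 and 0.0560), and the difference of 0.82 between genotypes (SE 0.25, unadjusted p = 0.00226) did not either (adjusted p = 0.779).

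A daily rhythm was tested with JTK_CYCLE, a rank test against cosine shapes with periods of 20 to 24 h, over the 18 libraries of each series. Chrm4 in iMSN-D2RKO saline was the single rhythmic case among the 32 pairs of member and series, with a corrected p of 0.00143. Its best-fitting period was 20 h, the shortest tested, and its estimated peak was 6 h after ZT3, which is ZT9. In a limma test of a 24 h cosine it was not called in that series (adjusted p = 0.182). Of all genes 2.58% were rhythmic in that series at a corrected p under 0.01, against 9.81% in WT saline, 7.61% in WT cocaine and 1.1% in iMSN-D2RKO cocaine, where 0 of 8 members were. The corrected p of Chrm4 was 0.839 in WT saline, 0.0359 in WT cocaine and 1 in iMSN-D2RKO cocaine. Without the set-apart libraries it was 0.0488 in iMSN-D2RKO saline, and without ZT7 replicate 1 it was 0.00622. Chrna7, with the E-box in its promoter window, had a corrected p of 1 in all 4 series, as did Chrm1, Chrm2 and Chrnb2. The difference in rhythm between series was not tested.

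Along the axis that separates the 13 set-apart libraries, receptor genes moved in both directions. In the 10 groups that hold both kinds, Chrm4 averaged -0.60 on the log2 scale in the set-apart libraries (SD 0.37 over groups) and was lower in 9 of 10 groups. Chrnb2 was lower in 9 of 10 groups, by a smaller amount (mean -0.22, SD 0.18). Chrm2, the Gi/o-coupled autoreceptor gene of cholinergic neurons, was higher in 10 of 10 groups with a mean of 0.84 (SD 0.46), and Chrna4 was higher in 9 of 10 (mean 0.37, SD 0.42). In FPKM, Chrm4 averaged 28.02 ± 5.10 (SD, n = 13) in the set-apart libraries and 44.7 ± 8.36 (n = 53) in the others, and Chrm2 6.09 ± 1.84 and 3.21 ± 1.06. The axis was built from genes with a mean of at least 5 FPKM, which include 6 of the members and not Chrm2 or Chrm5, and all differences along it are given as a description.

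**Figure D3:**
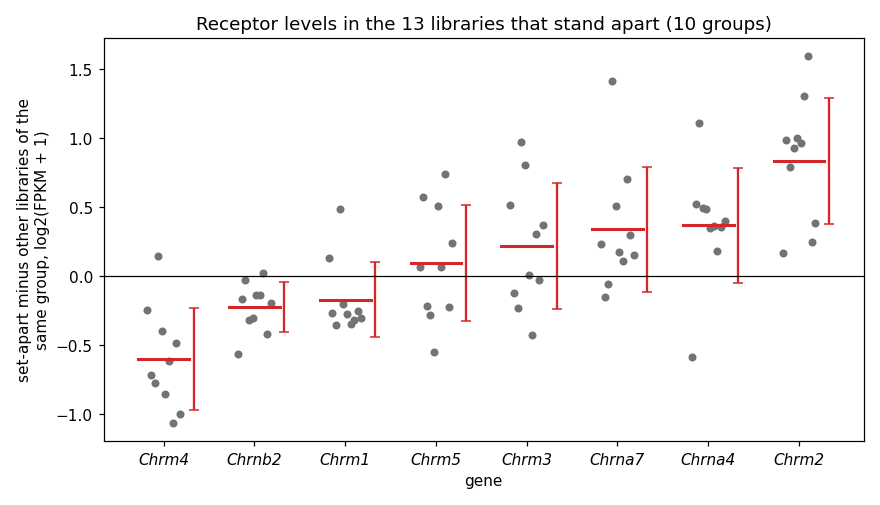
Mean of the set-apart libraries minus the mean of the other libraries of the same group, on the log2(FPKM + 1) scale (vertical axis), for each receptor gene (horizontal axis). Each point is 1 of 10 groups, red lines are means and red bars SDs over groups; Chrm4 is lowest at -0.60 and Chrm2 highest at 0.84.

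Among the libraries that did not stand apart, the receptors varied together and against each other. Deviations of each library from its group mean were correlated over 50 libraries of 19 groups, for 28 pairs of members and 72 pairs of a member and a cell type marker list, 100 relations in all. Libraries of a group share their mean, so p-values came from 100000 permutations of the libraries within groups and were adjusted over the 100 relations. In 17 relations, 6 of them between members, both Pearson's r and Spearman's rho had an adjusted p under 0.05.

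Chrm4 followed the spiny neuron markers most closely. Its r with the mean of 10 markers was 0.90 (rho 0.87, adjusted p = 0.0005 for both, the smallest that the permutations can give here, r = 0.88 without the 2 libraries of the most extreme Chrm4). Of 9573 other genes, 0.0522% had an r at least as large in size. Over all 66 libraries, the set-apart ones included, r was 0.73. Chrm1 followed the same markers less closely (r = 0.62, rho 0.68, adjusted p = 0.0131 for r) and went with Chrm4 (r = 0.67, rho 0.64, adjusted p = 0.00653 for r). With these markers 6.72% of genes had an r at least as large in size as that of Chrm1. For the pair, 5.23% of genes had one with Chrm4 and 7.09% with Chrm1. Chrm1 was lower where 6 astrocyte markers were higher (r = -0.75, rho -0.60, adjusted p = 0.00260 for r, 0.898% of genes as large). It also went against oligodendrocyte markers (r = -0.61, 4.29% of genes, r = -0.16 over all 66 libraries). The same held for markers of other striatal interneurons (r = -0.69, 3.69% of genes, r = -0.66 over all 66). Chrna7 went against the latter list as well (r = -0.61, 12.7% of genes, r = -0.55 over all 66).

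Chrna4 and Chrnb2, whose products form the alpha4-beta2 receptor, varied together with r = 0.76 (rho 0.62, adjusted p = 0.00318 for r and 0.00575 for rho, r = 0.70 without the 2 libraries of the most extreme Chrna4). Of 9582 genes, 0.355% had an r at least as large with Chrnb2. Over all 66 libraries r was 0.40. Oligodendrocyte markers went with both genes (r = 0.50 with Chrna4, adjusted p = 0.0344, and r = 0.54 with Chrnb2, adjusted p = 0.00643). With these markers, 8.58% of genes had an r at least as large as that of Chrna4 and 6.68% as that of Chrnb2. Over all 66 libraries these r were 0.12 for Chrna4 and 0.64 for Chrnb2. The spiny neuron markers went against Chrna4 (r = -0.66, adjusted p = 0.0005), where 4.86% of genes had an r at least as large in size. The part of the 2 marker lists in the relation of Chrna4 and Chrnb2 was not tested. The highest Chrna4 values of all libraries were 23.2 FPKM in iMSN-D2RKO ZT3 replicate 2, 18.3 in iMSN-D2RKO cocaine ZT19 replicate 3, 18.01 in WT cocaine ZT11 replicate 1 and 16.3 in iMSN-D2RKO cocaine ZT11 replicate 3. Chrnb2 in these libraries was 17.6, 17.4, 16.0 and 14.7 FPKM, all within the 8 highest values of Chrnb2.

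Chrm2 and Chrna4 went with each other (r = 0.56, rho 0.58, adjusted p = 0.00417 for r) and against Chrm4. The r of Chrm2 with Chrm4 was -0.72 (rho -0.70, adjusted p = 0.0005 for r, r = -0.64 without the 2 libraries of the most extreme Chrm2), and that of Chrna4 with Chrm4 was -0.62 (rho -0.63, adjusted p = 0.00260 for r). With Chrm2, 36% of genes had an r at least as large as that of Chrna4 and 12.4% at least as large as that of Chrm4. Chrm2 was also lower where the spiny neuron markers were higher (r = -0.67, rho -0.60, adjusted p = 0.00260 for r), where 4.35% of genes had an r at least as large in size. Chrm3 followed 7 cortical pyramidal markers (r = 0.77, rho 0.79, adjusted p = 0.0005 for both, r = 0.81 without its 2 most extreme libraries), where 0.418% of 9579 genes had an r at least as large. It also went with Chrna7 (r = 0.67, rho 0.68, adjusted p = 0.00260 for r), and 36.3% of genes had an r of that size with Chrna7 and 1.38% with Chrm3. The r of Chrm3 with Chrna7 was 0.55 without iMSN-D2RKO saline ZT7 replicate 1, the lowest of all libraries in both genes. Within groups the labels give no batch by which these relations could be split.

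**Figure D4:**
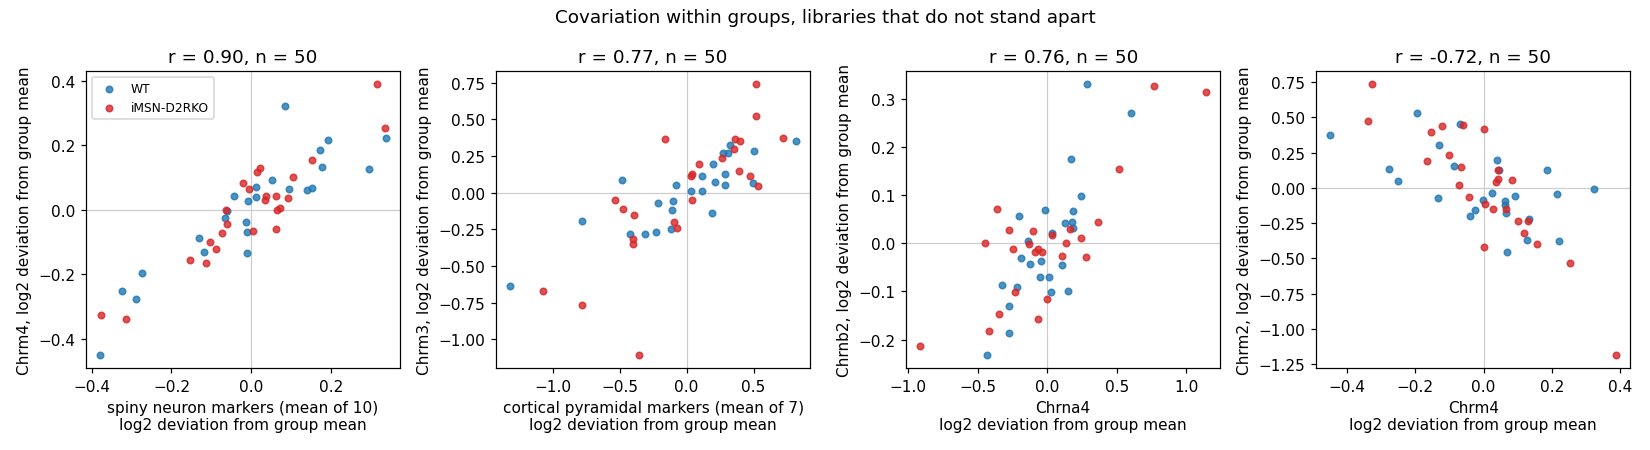
Deviations of 50 libraries from the mean of their group on the log2(FPKM + 1) scale, blue for WT and red for iMSN-D2RKO, for Chrm4 against spiny neuron markers (r = 0.90), Chrm3 against cortical pyramidal markers (r = 0.77), Chrnb2 against Chrna4 (r = 0.76) and Chrm2 against Chrm4 (r = -0.72), with the named gene or list on each axis. The marker lists are drawn as the mean of their genes.

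Over the 22 group means, the genes most like each member were found among those with a mean of at least 5 FPKM. For Chrm4 they were Wscd2 (r = 0.94) and Smpd3 (r = 0.94), and for Chrm3 Car10 (r = 0.91) and Slitrk1 (r = 0.91). Those of Chrna4 were Adgra1 (r = 0.92) and Slc24a3 (r = 0.89), and those of Chrnb2 Trpm2 (r = 0.90) and Dbndd1 (r = 0.90). Chrm2 was most like Lats2 (r = 0.87) and Esrrg (r = 0.84), Chrm1 like Zmym3 (r = 0.87) and Dusp18 (r = 0.86), Chrna7 like Lrrc8b (r = 0.83) and Sstr4 (r = 0.82), and Chrm5 like Rab9b (r = 0.82) and Peg10 (r = 0.81). These r are the highest among all genes compared and are given as a description.

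Of the genes that make, transport and break down acetylcholine, 0 of 8 were called in any of the 4 comparisons of level, where 0.0 to 0.189% of all genes were called. Between dark and light hours 2 of 8 fell in WT cocaine and 3 of 8 in iMSN-D2RKO saline, none rose, and none was called in the other series (of all genes, 2.75% were called in WT saline, 13.7% in WT cocaine, 27.3% in iMSN-D2RKO saline and 0.942% in iMSN-D2RKO cocaine). The share of all genes called as lower was 3.79% in WT cocaine and 9.88% in iMSN-D2RKO saline. Slc18a3, the vesicular acetylcholine transporter gene, was 7.46 FPKM ± 2.51 (SD, n = 9) in dark and 11.3 ± 1.86 in light hours in WT cocaine (log2 difference -0.58, adjusted p = 0.00931), and 6.36 ± 1.52 against 10.3 ± 3.18 FPKM in iMSN-D2RKO saline (-0.59, adjusted p = 0.00787). Prima1, the membrane anchor of acetylcholinesterase, fell in the same series (log2 differences -0.60 and -0.58), and Ache, the esterase itself and with 58.4 FPKM the most abundant gene of the list, fell in iMSN-D2RKO saline (-0.31, adjusted p = 0.0350), a call that was lost without iMSN-D2RKO saline ZT7 replicate 1 (adjusted p = 0.0850). The choline transporter-like gene Slc44a1 (34.8 FPKM) was not called. Without the set-apart libraries 2 of 8 were still called as lower in WT cocaine, as were 4.35% of all genes. Slc18a3 had a log2 difference of -0.63 there (adjusted p = 0.000719) and Prima1 of -0.78 (adjusted p = 0.000147). In iMSN-D2RKO saline 0 of 8 were called without these libraries, and Slc18a3 had -0.42 (adjusted p = 0.159). With the library score as a covariate neither was called in WT cocaine, where Slc18a3 had -0.35 (adjusted p = 0.0722) and Prima1 -0.42 (adjusted p = 0.0948).

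Of 5 genes of cholinergic neuron identity, Isl1 (8.63 FPKM) and Lhx8 (5.39 FPKM) were the most abundant. None of the 5 was called in the 4 comparisons of level, where 0.0 to 0.189% of all genes were called. Among 7 listed genes of nicotinic receptor assembly and modulation, led by Ly6h (208 FPKM) and Lynx1 (86.4 FPKM), Tmem35, a chaperone gene of nicotinic receptors, fell in the dark in WT saline (-0.36, adjusted p = 0.0391). In that series 0.744% of all genes were called as lower and 2.75% in either direction. In iMSN-D2RKO saline Lynx1, a membrane-bound inhibitor of nicotinic receptors, fell (-0.41, adjusted p = 0.0206) and the chaperone gene Ric3 rose (0.31, adjusted p = 0.0470). There 9.88% of all genes were called as lower and 17.4% as higher, so calls in this list are not particular to it. Without the set-apart libraries no gene of this list was called in any of the 4 series, and Ric3 was not called without ZT7 replicate 1 either (adjusted p = 0.0875).

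Of 19 genes that act downstream of muscarinic receptors, led by Adcy5 (352 FPKM) and Gnao1 (294 FPKM), 3 rose in the dark in iMSN-D2RKO saline and none fell (17.4% of all genes rose). They were Gnai1, a Gi subunit gene (log2 difference 0.49, adjusted p = 0.0204), Gnaq, the Gq subunit gene (0.33, adjusted p = 0.0356), and Prkca, a protein kinase C gene (0.41, adjusted p = 0.0386). The median log2 difference of the 19 was 0.16, with 0.03 for all genes. None of the 19 was called for cocaine or genotype, or in the other 3 series. Of all genes 0.0% were called for cocaine in each genotype, and 0.189% in saline and 0.0487% in cocaine for genotype. Between dark and light hours 2.75% were called in WT saline, 13.7% in WT cocaine and 0.942% in iMSN-D2RKO cocaine. The 3 calls were lost without the set-apart libraries and also without ZT7 replicate 1 (adjusted p = 0.0522 for Gnai1, 0.0962 for Gnaq and 0.0923 for Prkca).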

How the data were processed

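RNA sequencing of NAcc punches was analysed from the gene table as deposited. The authors sequenced stranded mRNA libraries, aligned the reads (TopHat 2.1.1, Bowtie2 2.3.4, genome build mm10) and made the deposited FPKM values with Cufflinks, Cuffmerge, Cuffquant and Cuffnorm. Read depth, annotation release and the strand setting of the counting are not given in the sources used here, so no counting error could be attached to a value. The 72 columns held 66 distinct libraries: each of the 6 ZT3 libraries was listed in 2 columns with identical values and was used once.

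Groups came from the sample labels. Values were compared as log2(FPKM + 1) in genes reaching 1 FPKM in at least 1 library of a comparison, with limma 3.58.1 (moderated test with trend, two-sided, Benjamini-Hochberg adjustment over all genes, R 4.3.3). Levels were fitted with time as a covariate. Single time points and dark against light hours were contrasts of 1 fit of all 66 libraries. Saline libraries enter both treatment and genotype comparisons, and ZT3 libraries enter both series of a genotype, so these comparisons are not independent. Fold differences are on the log2(FPKM + 1) scale and understate changes of low genes such as Chrm5. Rhythm was tested with an implementation of JTK_CYCLE in Python 3.11.15 after Dixon's test within groups. Libraries were set apart by the first axis of within-group deviations over 9584 genes with a mean of at least 5 FPKM. The tests were run on simulated data with independent noise, without the shared axis of the set-apart libraries. Those simulations therefore do not check calls that move with these libraries.

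Genes named were the 8 members, Drd2, of each list up to 2 genes of lowest adjusted p under 0.05 per comparison and the 2 of highest mean FPKM, and for each member the 2 genes most alike over group means. Where a list held 3 called genes all are named, and Chrnd, Emx1 and Slc17a7 are named outside this rule, chosen after their values were seen. For the list of cholinergic neuron identity, calls between dark and light hours are not reported here, nor are those of the downstream list in WT cocaine without the set-apart libraries. Lists covered other nicotinic subunits, acetylcholine synthesis to breakdown, cholinergic neuron identity, nicotinic receptor assembly, muscarinic signalling and markers of cell types. Members and lists were chosen with earlier results of these data known. The differences between genotypes at single time points and between dark and light, and the fits without iMSN-D2RKO saline ZT7 replicate 1, were added after seeing the data. Alternatives were another pseudocount, no filter, each replicate number left out, a replicate block, no set-apart libraries, the library score as a covariate, median-ratio scaling and another rhythm threshold or test.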

Additional observations from a re-analysis of the deposited data

How the results depend on the processing

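Of 156 counts of members called under alternatives, over 15 comparisons, 137 stayed within 1.5 times the main count, 19 did not, and no member effect reversed. Between dark and light hours in iMSN-D2RKO saline, 1 member was called, and 0 to 3 leaving out each replicate number in turn, 0 with the set-apart libraries removed, 0 without iMSN-D2RKO saline ZT7 replicate 1 and 0 with the library score as covariate. The log2 difference of Chrm4 there was -0.43 without replicate 1 (adjusted p = 0.192), -0.64 without replicate 2 (0.0171), -0.31 without replicate 3 (0.226) and -0.15 with the score (0.596). For cocaine at single time points the count went from 0 to 1 without the set-apart libraries (Chrm4 at ZT19 in WT, a comparison of 1 cocaine with 1 saline library, assumed to vary like the other groups). For genotype at single time points it went from 0 to 1 without the set-apart libraries (Chrm4, ZT19 cocaine, with 1 WT library left), and to 1 with median-ratio scaling and 1 without iMSN-D2RKO saline ZT7 replicate 1 (Chrnb2, ZT19 cocaine). Rhythmic members went from 0 to 1 in WT saline without the set-apart libraries (Chrna4) and from 0 to 1 in WT cocaine at a corrected p under 0.05 (Chrm4). In iMSN-D2RKO saline, 1 rhythmic member became 0 without Dixon's test, 0 to 1 leaving out each replicate number in turn (corrected p of Chrm4 0.312, 0.0286 and 0.00173 without replicate 1, 2 and 3, the 1 member without replicate 2 being Chrna4), 0 with the set-apart libraries removed, 0 with the score removed, 2 at a corrected p under 0.05, and 0 in a limma cosine test with or without the replicate block. The cause of these changes was not tested.

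Same-numbered libraries did not deviate together on the whole (median r from -0.012 to 0.018, 22 of 66 libraries closest to their own number). Single pairs ran from -0.89 to 0.88, and this check does not show whether same-numbered libraries share an origin. With the replicate block the dark against light count in iMSN-D2RKO saline was 1 (Chrm4 adjusted p = 0.0297) and 0 members were called in the other limma comparisons.

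Genes called ranged over alternatives from 7 to 136 (main 27) for genotype in saline, 0 to 25 (7) in cocaine and 0 to 2 (0) for cocaine in WT. Between dark and light they ranged from 0 to 1188 (403) in WT saline, 0 to 3227 (2004) in WT cocaine, 31 to 4841 (4001) in iMSN-D2RKO saline and 0 to 589 (138) in iMSN-D2RKO cocaine. At single time points they ranged from 1 to 1530 (7) for cocaine and 193 to 5272 (2848) for genotype. Rhythmic genes ranged from 201 to 3304 (1367), 210 to 2779 (1086), 1 to 1602 (365) and 0 to 580 (153) in the same order of series.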

Other observations

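The 4 libraries of highest Chrna4, picked after their values were seen, are given here with their Chrm1. In iMSN-D2RKO ZT3 replicate 2 Chrm1 was 18.9 FPKM, the lowest of the 66 libraries, and in the other three it was 21.5, 26.4 and 21.2 FPKM, where the median of all libraries was 27.99 FPKM.

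Penk, the enkephalin gene of indirect pathway spiny neurons and one of the 10 spiny neuron markers, was higher in iMSN-D2RKO than in WT mice. It was 2484 FPKM ± 1771 (SD, n = 18) against 1326 ± 281 in the saline series (log2 difference 0.76, adjusted p = 0.0165) and 2267 ± 524 (SD, n = 15) against 1405 ± 375 in the cocaine series (0.69, adjusted p = 0.0224). The highest Penk value, 9282 FPKM, was that of iMSN-D2RKO saline ZT7 replicate 1, which raises the mean and SD of that series. The difference without this library is not given here, and the cocaine series does not hold it. Without the set-apart libraries the differences were 0.79 and 0.70 and neither was called (adjusted p = 0.0609 and 0.0574). None of the 8 receptor genes was called in these comparisons.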
